A study of Caenorhabditis elegans with 4 samples.

Results

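The Hox window is the stretch of Caenorhabditis elegans chromosome III from 7500000 to 7830000 on the WS220 build, with the Hox genes lin-39 and ceh-13 on its left side and mab-5 and egl-5 on its right side. Its members are the deposited NHR-2 peaks whose centre lies in those 330 kb. They are 19 of the 2299 peaks of the combined list, 116 of the 29379 peaks of replicate 1 and 78 of the 24151 peaks of replicate 2. The window was set by position and not by any peak value, though earlier results of these data were known when it was chosen.

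Hox genes encode homeodomain transcription factors that give cells their identity along the body from head to tail. In C. elegans, ceh-13 is the anterior, labial-type gene and is needed for the shaping of the embryo. The gene lin-39 patterns the mid-body and the vulval precursor cells. The gene mab-5 acts in the posterior body and in migrating neuroblasts, and egl-5 is an Abdominal-B-type gene of the tail. The genes do not form one tight cluster as in vertebrates but lie in pairs with other genes between them. NHR-2 is a nuclear hormone receptor, a zinc-finger transcription factor that is made in the early embryo.

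The study mapped NHR-2 by chromatin immunoprecipitation and sequencing (ChIP-seq) in embryos of strain OP99, a mixed population of males and hermaphrodites grown at 20 °C and crosslinked with 2% formaldehyde. All libraries share the unc119(ed3) background and the array wgIs99, which was introduced by bombardment and carries nhr-2 with a TY1, EGFP and FLAG tag beside an unc119 rescue gene. The labels describe 2 libraries of DNA collected with anti-GFP antibodies and 2 of input DNA from the lysates. Peak lists were analysed for both ChIP libraries and for the combined list, no input values were analysed here, and nothing in the labels says that the replicates came from separate cultures. In a table of WBcel235 genes, used only for names and order, nhr-2 lies on chromosome I and unc-119 lies on III beyond egl-5, so neither transgene-borne gene falls among the Hox genes described here. The 4 Hox genes described here were found there, in the order lin-39, ceh-13, mab-5 and egl-5, and php-3 and nob-1 lie on III beyond egl-5. No protein-coding gene stands between lin-39 and ceh-13, 37 stand between ceh-13 and mab-5, among them fbn-1, lin-13, ncl-1 and cdh-3, and 1, cyk-7, stands between mab-5 and egl-5. Because that table is of another build, no peak was assigned to a gene. Peaks are described by WS220 position and by stretches of 110 kb each, the left with lin-39 and ceh-13, the middle, and the right with mab-5 and egl-5.

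Combined NHR-2 peaks lay on both Hox sides of the window and between them. The left stretch held 6, the middle 5 and the right 8 of the 19 peaks. The outer 46.8 kb on the left and the outer 29.5 kb on the right held no combined peak centre. The nearest combined peaks outside were 123.6 kb beyond the left edge, at 7376173 to 7376622 (peak number 1227), and 24.6 kb beyond the right edge, at 7854407 to 7854856 (peak number 1206). Replicate peaks ran closer to the edges, with the first inside 2.4 kb (replicate 1) and 5.1 kb (replicate 2) from the left edge and the last 5.9 and 0.9 kb from the right one. Peaks are numbered by the authors, and number 1 was read as the strongest of a list, since the peaks tied at the highest score hold the lowest numbers. Each also carries the authors' score, whose scale is not stated. The score is tied at a highest value of 3.54 in the combined list, 3.67 in replicate 1 and 3.30 in replicate 2. Among tied peaks, 1737 of the 2299 in the combined list, the score gives no order. Below the tie the numbers did not always follow the scores, since combined peak 1883 scored 2.62 and peak 2020 scored 2.66. Words of strength below therefore mean order by peak number, which the scores bear out only in part. Read depth is unknown.

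**Figure D1:**
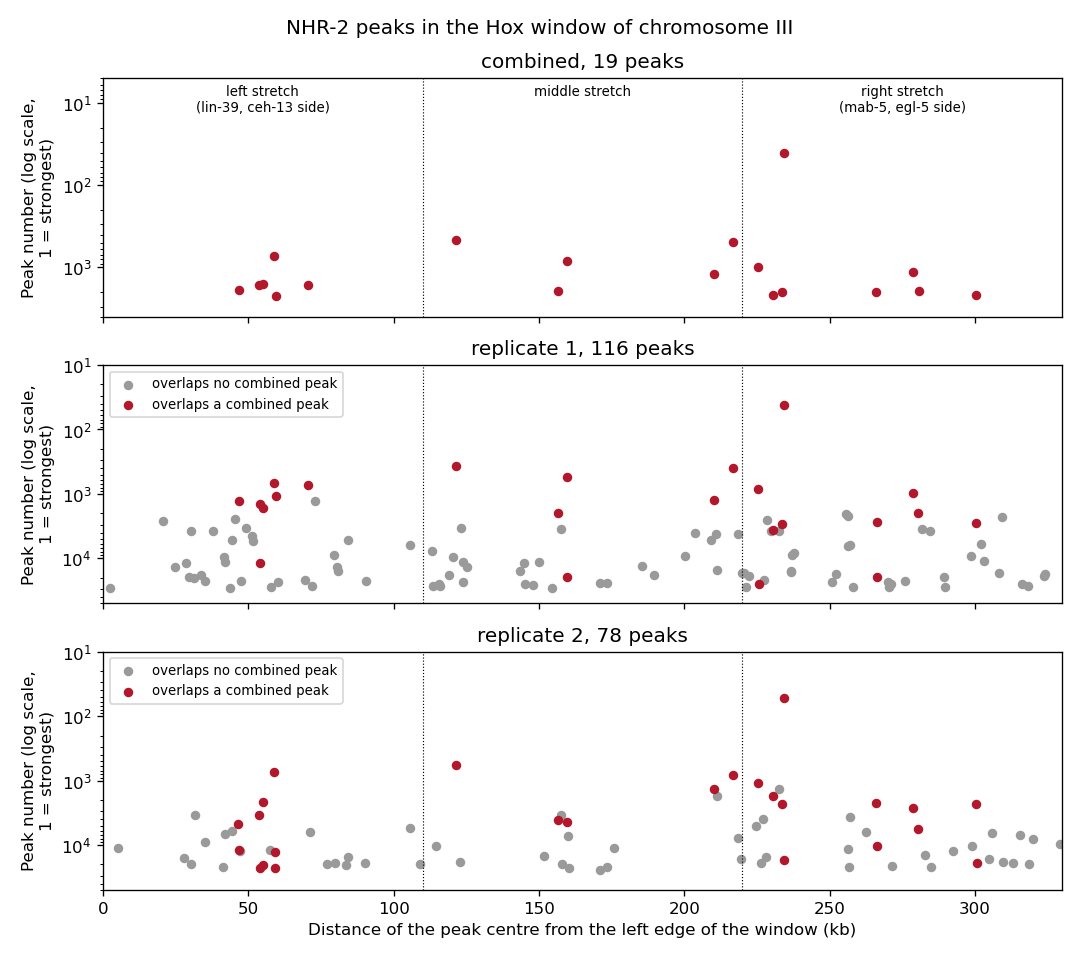
Each point is a peak of the window, placed by the distance of its centre from the left edge in kb (x axis) and by its peak number on a log scale with the strongest at the top (y axis), for the combined list and both replicates. Dotted lines divide the 3 stretches, red points are combined peaks or overlap one, and peak 41 of the combined list stands above all others at 234.2 kb.

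On the lin-39 and ceh-13 side, 5 of the 6 combined peaks stood in a group that spanned 46.8 to 59.4 kb from the left edge. The strongest was peak 721 at 7558558 to 7559007, with a score of 3.54. It was found at similar strength in both libraries, as peak 679 in replicate 1 and peak 732 in replicate 2, at the highest score of each. The peak next to it, with centres 0.61 kb apart, was the weakest of the window. It was peak 2231 at 7559164 to 7559613, matched by peak 1065 in replicate 1 and only by peak 12950 in replicate 2. Further left in the group were peak 1593 at 7554710 to 7555159 (1638 in replicate 1 and 2169 in replicate 2), peak 1652 at 7553571 to 7554020 (1414 and 3436) and peak 1883 at 7546531 to 7546980 (1299 and 4728). Replicate 2 peak 4728, at 7546093 to 7546562, overlapped only the left edge of peak 1883. The replicate 2 peak with the nearest centre, 130 bp away, was peak 12106 with a score of 0.07. All 6 peaks of this side had the lower number, and so the stronger rank, in replicate 1. For the sixth, described next, a missing overlap in replicate 2 was counted as higher.

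The sixth peak of this side was found in replicate 1 alone. It was combined peak 1628 at 7570226 to 7570675, with a score of 3.54, and it matched peak 721 of replicate 1 at the highest score. No replicate 2 peak overlapped it. The nearest replicate 2 peak, number 6265 at 7570974 to 7571443, had its centre 758 bp away and a score of 0.21. In the window, 18 of 19 combined peaks were overlapped in replicate 2 (94.7%, exact 95% interval 74.0 to 99.9%), against 99.1% of the whole list. All 19 were overlapped in replicate 1, against 99.8% of the list. Both replicates overlapped the same 18, where 98.9% of the list was overlapped in both.

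The middle stretch, between the Hox pairs, held fewer peaks with a better median rank. Its 5 combined peaks had a median number of 847, against 1640.0 on the left and 1951.5 on the right. Peak 470 at 7621271 to 7621720 stood alone, 51.04 kb from its left neighbour and 35.08 kb from its right one, and was peak 370 in replicate 1 and peak 565 in replicate 2. Peak 491 at 7716503 to 7716952 was peak 397 in replicate 1 and peak 831 in replicate 2. Both were at the highest score of all 3 lists. Peak 1221 at 7709927 to 7710376 ranked alike in the libraries, as peak 1251 and peak 1363.

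A pair of middle peaks ranked differently in the libraries. Peak 847 at 7659475 to 7659595, only 121 bp wide, was peak 551 in replicate 1 and peak 4339 in replicate 2, where its score was 0.35. Peak 1935 at 7656352 to 7656801 was peak 2005 and peak 4091. These peaks are placed between ceh-13 and mab-5 by the window's layout only, and which of the genes in between they lie at was not determined.

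The strongest peak of the window lay in the right stretch. Combined peak 41 at 7734075 to 7734403, 329 bp wide, was peak 41 in replicate 1 and peak 53 in replicate 2, at the highest score of each list. On chromosome III, 7 of the 378 combined peaks had a lower number, which made it the eighth. It was the only peak of the window among the 100 strongest of the combined list and of each replicate. In the combined list that is 1 of 19, near the 100 of 2299 of the list and the 15 of 359 of the rest of III. Of the other 40 windows of the same length on III, 4 held a peak with a lower number.

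Peak 41 was the right-hand end of the largest group of the window. The group ran over 6 peaks from 210.2 to 234.2 kb from the left edge, across the border of the middle and right stretches. Besides peaks 1221 and 491, described above, it held peak 979 at 7725241 to 7725690 (849 in replicate 1 and 1109 in replicate 2), peak 2156 at 7730439 to 7730888 (3617 and 1741) and peak 2020 at 7733333 to 7733782 (2934 and 2311). The centre of the last was 0.68 kb from that of peak 41. In this group the libraries did not lean one way, since 4 peaks had the lower number in replicate 1 and 2 peaks in replicate 2.

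The other 4 right-hand peaks stood between 266.1 and 300.5 kb from the left edge and had numbers from 1133 to 2148. Peak 1988 at 7765887 to 7766336 was peak 2760 in replicate 1 and peak 2220 in replicate 2. Peak 1133 at 7778469 to 7778918 was peak 954 and peak 2645. Its neighbour 1.94 kb away, peak 1915 at 7780410 to 7780859, was peak 1991 and peak 5551. The last, peak 2148 at 7800317 to 7800766, was peak 2776 and peak 2317. Of the 8 peaks of the right stretch, 4 had the lower number in each replicate.

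The first comparison set the number of peaks against other windows of III. Windows of 330 kb were laid end to end from the edges of the Hox window, which gave 40 others. Neighbouring windows are a background and not replicates, so ranks are given with no test. The Hox window held as many combined peaks as any of them. Its 19 peaks were 2.15 times the mean of the others, 8.85 ± 3.96 (SD over 40 windows), whose range was 3 to 19. Only the window from 4200000 to 4529999 also held 19. The next below was 8820000 to 9149999 with 18 peaks, and the lowest was 2220000 to 2549999 with 3. The neighbouring windows held 4 on the left and 10 on the right. In the middle 50% of III, where peaks are denser, the mean of the other 20 windows was 10.9 ± 4.17 (SD) and 0 held more. Over all nuclear chromosomes, 0 of 299 other windows held more than 19, and 4 held 19.

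This first place was found in replicate 1 and not in replicate 2. Of the strongest 2299 peaks of replicate 1, 19 lay in the Hox window, against a mean of 8.32 ± 4.24 (SD, 40 windows), and 0 windows held more. Of the strongest 2299 of replicate 2, 11 did, against 9.47 ± 3.61, and 12 windows held more. The stronger 50% of the combined list gave 7 peaks against 4.22 ± 2.43, with 6 windows above. By its full lists the window was ordinary or low. It was 20th of 41 windows in replicate 1, with 116 peaks against 115 ± 20.3, and 33rd in replicate 2, with 78 against 98.9 ± 20.0. The low replicate 2 count was not particular to it. The neighbouring windows held 69 replicate 2 peaks on the left and 59 on the right, and 82 and 85 replicate 1 peaks.

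**Figure D2:**
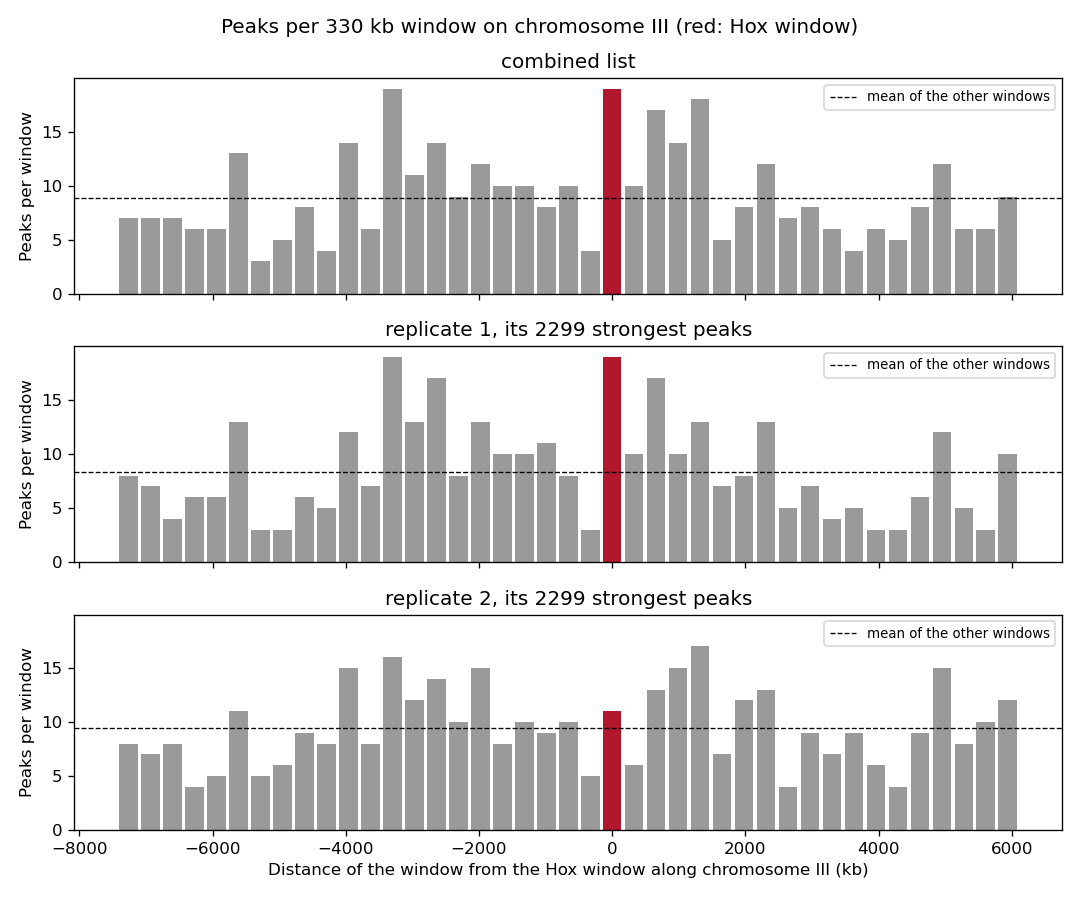
Bars give the peaks per window of 330 kb along chromosome III (y axis), by the distance of each window from the Hox window in kb (x axis), for the combined list and for the 2299 strongest peaks of each replicate. The Hox window, in red, held 19, 19 and 11 peaks, and the dashed line is the mean of the other 40 windows.

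The second comparison concerned spacing. Combined peaks in the Hox window were closer together than over III, as the higher count implies. The median gap between neighbouring centres was 6.81 kb over 18 gaps, against 17.22 kb over the 377 gaps of III. Gaps ranged from 0.606 to 51.0 kb. With neighbours up to 10 kb apart counted as a group, the 19 peaks formed 8 groups, of 5, 6, 2 and 2 peaks and 4 single peaks. Of the 19 peaks, 8 had another combined peak within 2 kb (42.1%), against a median of 28.6% in the other windows, of which 10 were higher. Within 10 kb, 15 had one (78.9%), with 4 windows higher.

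Among the 4 windows with 17 or more combined peaks, the Hox window had the shortest of the longest gaps and the largest of the median gaps. Its longest gap inside the window, 51.0 kb, compares with 73.0 kb in the other window of 19 peaks, 103.5 kb in the one of 18 and 58.6 kb in 8160000 to 8489999, which held 17. Of all 40 other windows, 3 had a shorter longest gap. Their median gaps were 5.22, 3.53 and 5.79 kb in the same order, each below the 6.81 kb of the Hox window. It also had 8 groups, and 1 other window on III had more. In the full replicate lists the gaps were close to those of the chromosome. The median was 1.41 kb in replicate 1 (1.80 kb on III) and 2.25 kb in replicate 2 (1.98 kb on III).

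**Figure D3:**
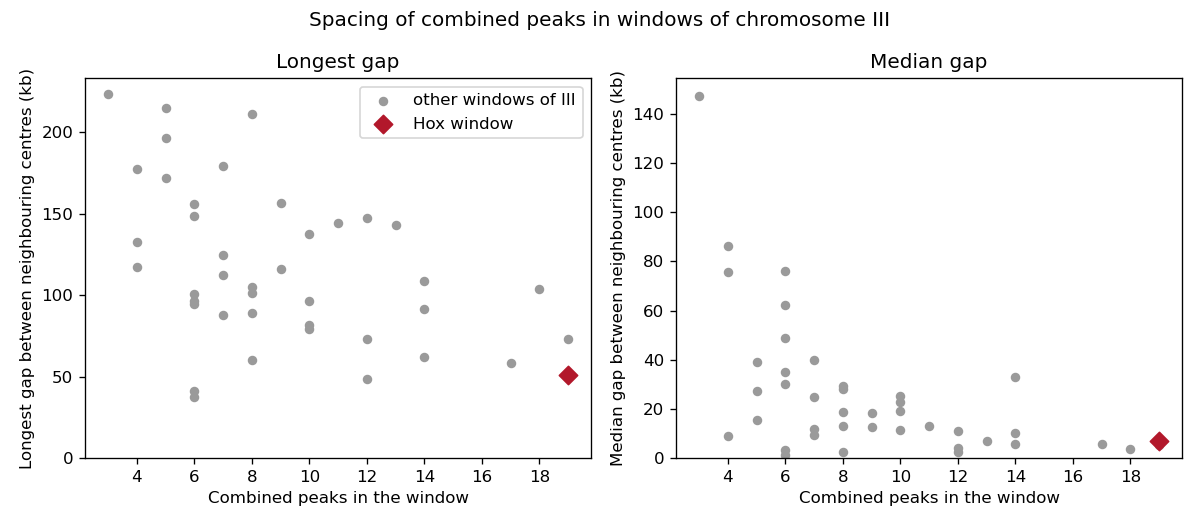
Each point is a window of 330 kb on III, by its number of combined peaks (x axes) and by the longest (left) or median (right) gap between neighbouring peak centres in kb (y axes). The Hox window, the red diamond, had 19 peaks, a longest gap of 51.0 kb and a median gap of 6.81 kb.

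The third comparison concerned strength. Combined peaks of the Hox window had a median number of 1628, against 1190 over the rest of III and 1150 over the list, and ranged from peak 41 to peak 2231. The window held 7 of 19 peaks in the stronger 50% (36.8%, exact 95% interval 16.3 to 61.6%, where the list holds 50.0%). At the highest score stood 11 of 19 (57.9%, 33.5 to 79.7%), against 75.6% of the list. Both intervals include the share of the list, so neither share stood apart from it, and they treat peaks as independent, which neighbouring peaks may not be. The 8 peaks below the ceiling scored 2.33 to 2.66. Of the other 40 windows, 7 had a higher median number. In the replicate lists, 19 of 116 peaks of the window (16.4%) were among the strongest 2299 of replicate 1, against 7.83% of that list, and 11 of 78 (14.1%) in replicate 2, against 9.52%.

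The fourth comparison asked how far the libraries gave the same order to the combined peaks. Of the 19 peaks, 15 had the lower number in replicate 1 (78.9%, exact 95% interval 54.4 to 93.9%), counting a missing overlap as higher. Over the whole list 52.6% did, and over the rest of III 174 of 359. The interval treats peaks as independent, which neighbouring peaks may not be. The median best number was 1251 in replicate 1 and 2311 in replicate 2, whereas over the rest of III it was 1260 and 1180. For 9 of the 19 peaks (47.4%, 24.4 to 71.1%) the replicate 2 number was over 2 times the replicate 1 number, against 21.0% of the list. The opposite held for 1 peak (5.26%), against 16.9% of the list. Peak 1628, which no replicate 2 peak overlapped, is among the 9 and was ranked last in the median of 2311.

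This lean toward replicate 1 was found in the left and middle stretches and not in the right. All 6 left and all 5 middle peaks had the lower number in replicate 1, and 4 of the 8 right-hand peaks did. The missing overlap of peak 1628, on the left, was counted as higher. Among the left peaks with an overlap in both libraries, the median log2 ratio of the replicate 2 number to the replicate 1 number was 1.28 (5 peaks). It was 1.03 in the middle (5 peaks) and 0.05 on the right (8 peaks). The difference between stretches was seen in the data and was not tested. No replicate 2 number up to 5000 was found for 3 of 19 peaks (15.8%), against 7.22% of the list, and 2 of the 3 lay on the left. Peak 1883, also on the left, was counted as found through replicate 2 peak 4728, which overlapped only its edge. A replicate 1 number up to 5000 was found for all 19; it was lacking for 2.44% of the list.

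**Figure D4:**
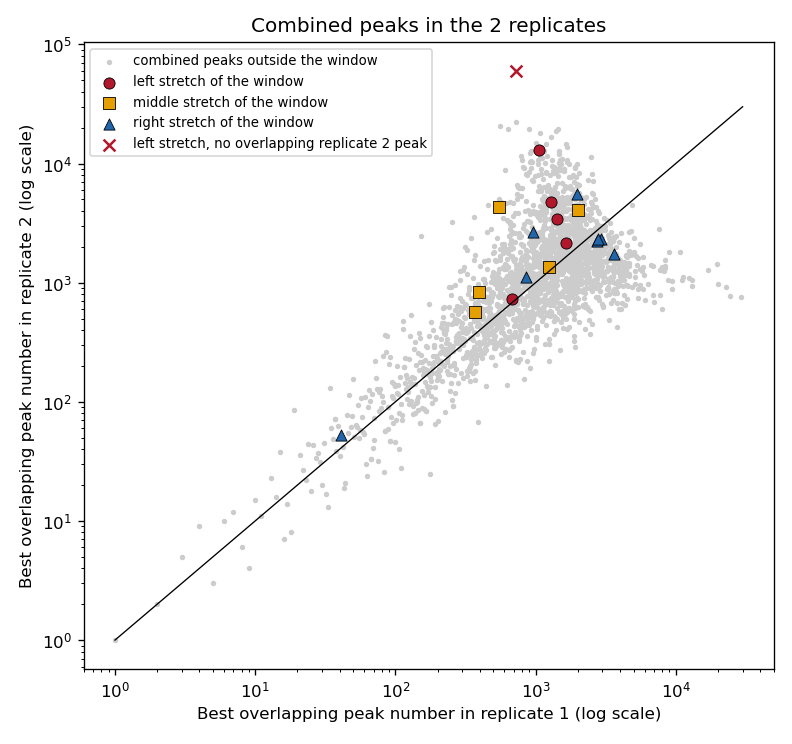
Each point is a combined peak, by the number of its best overlapping peak in replicate 1 (x axis) and replicate 2 (y axis), both on log scales, with the line of equal numbers; the cross marks the left-hand peak with no overlap in replicate 2 and has no value on the y axis. Left and middle peaks of the Hox window lie above the line, and right-hand peaks on both sides of it.

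The last comparison used all peaks of the window in the replicate lists, most of which are weak. Of the 116 replicate 1 peaks, 51 overlapped a replicate 2 peak by at least 1 bp (44.0%, exact 95% interval 34.8 to 53.5%), close to the 42.3% of the whole list and to the 46.6% of the rest of III. Of the 78 replicate 2 peaks, 55 overlapped a replicate 1 peak (70.5%, 59.1 to 80.3%), against 51.9% of the list and 54.0% of the rest of III. None of the other 40 windows reached that share, but their highest, 67.7%, lies within the interval. The intervals treat peaks as independent, though some neighbouring peaks of a list overlap each other. The neighbouring windows stood at 58.0% on the left and 57.6% on the right. With a reciprocal overlap of 50% the share fell to 46.2% and 6 windows were higher, and with centres within 200 bp it was 50.0% and 2 were higher. Up to number 5000 of replicate 2, all 22 peaks of the window were shared, where the list gives 80.5%. Beyond number 10000, 26 of 42 were, where the list gives 41.4%. Between these limits the window was not above the list, with 7 of 14 shared where the list gives 53.1%. Up to number 5000 of replicate 1, 27 of 39 were shared, where the list gives 79.6%.

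The share of the window's replicate peaks that overlapped a combined peak follows in part from the counts above, a high combined count over an ordinary count in replicate 1 and a low one in replicate 2. In replicate 1 it was 23 of 116 (19.8%, exact 95% interval 13.004 to 28.3%), against 9.28% of the list and at most 19.6% in another window, a difference from that window far within the interval. In replicate 2 it was 25 of 78 (32.1%, 21.9 to 43.6%), against 11.7% of the list and at most 27.5% in another window. Several replicate peaks can overlap the same combined peak, and the combined list is no repeat independent of the replicates.

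**Figure D5:**
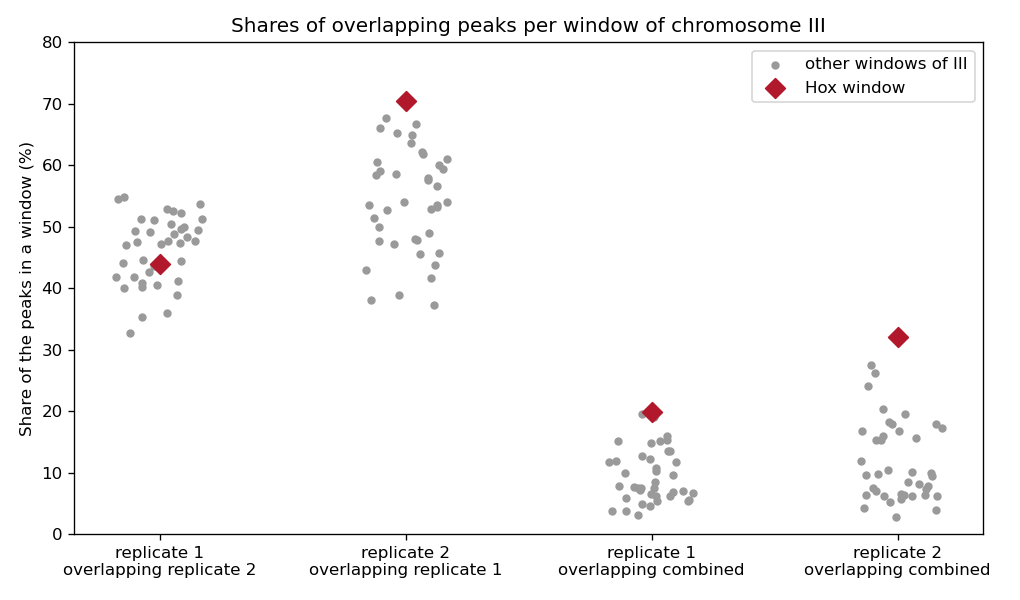
Points give, for each window of III, the share in percent (y axis) of a replicate's peaks that overlap the other replicate or the combined list by at least 1 bp (x axis, 4 comparisons); horizontal scatter has no meaning. The Hox window, the red diamond, is at 44.0%, 70.5%, 19.8% and 32.1%, and is above the other windows in all but the first.

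Some fairly strong replicate peaks of the window did not enter the combined list. Of the 19 peaks of the window among the strongest 2299 of replicate 1, 4 overlapped no combined peak (21.1%, against 17.1% over that list), and 2 of the 11 of replicate 2 did not (18.2%, against 21.5%). Both shares were near the background. The strongest of these in replicate 1 was peak 1290 at 7572804 to 7573203, on the left, 2.55 kb from combined peak 1628 and, like it, without an overlap in replicate 2. The next were peak 2076 at 7755403 to 7755802, also without one, and peak 2174 at 7756095 to 7756494, matched only by peak 11491 of replicate 2.

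In replicate 2 the strongest peaks outside the combined list were seen in both libraries. Peak 1353 at 7732450 to 7732919 overlapped peak 3713 of replicate 1 and lay 0.87 kb from combined peak 2020, in the large group on the right. Peak 1715 at 7710933 to 7711402 overlapped peak 4132 of replicate 1, 1.02 kb from combined peak 1221. Peak 3374 at 7531556 to 7532025 lay on the left, 14.96 kb outside the leftmost combined peak, and overlapped only peak 20183 of replicate 1.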

How the data were processed

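Peak lists of 2 anti-GFP ChIP libraries and a combined list were used as deposited. Per the file headers, coordinates are on WormBase WS220; the source column names SPP with the irreproducible discovery rate. The aligner, the thresholds and the making of the combined list were not given in the sources used here. The score of each peak is the authors' own, as deposited, and was used only to describe peaks within a list. Peaks were ranked by the authors' number, and the numbers of matched peaks were also set side by side between the replicates. Read depth is unknown. From the lists were computed counts by peak centre, overlaps of at least 1 bp, gaps between centres, ranks among windows of 330 kb, and exact binomial (Clopper-Pearson, 95%) intervals, which cover counting error only. The best match of a combined peak was the overlapping replicate peak of lowest number. Only peak lists of the ChIP group were used, so groups of samples were not tested against each other and no p-value is given.

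Window and overlap counts were tested on 20 simulated sets, and all 20 were recovered, with overlaps equal to those of bedtools 2.31.1. Scripts ran under Python 3.11.15 with pandas 2.3.3, numpy 2.4.6, matplotlib 3.10.9 and scipy 1.17.1. The named peaks were all combined peaks of the window and, per replicate, the 3 strongest outside the combined list; the named windows were those with the most, the fewest and the adjacent counts. The next richest window and the neighbours of the Hox window were named after their values were seen. The window, its genes and these rules were chosen with earlier results of these data known. Alternatives were other lists, windows and overlap rules.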

Additional observations from a re-analysis of the deposited data

How the results depend on the processing

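With the strongest 2299 peaks of 1 replicate in place of the combined list, the window held 11 to 19 peaks, 67.5% to 97.5% of the other windows held fewer, the median gap was 5.39 to 7.92 kb, the median peak number stood at 54.4% to 58.9% of the list (70.8% in the combined list), and the left, middle and right stretches held 2 to 7, 4 to 5 and 5 to 7 peaks. The low values of the count and of the left and right stretches came from leaving out replicate 1. In the stronger 50% of the combined list, where fewer peaks enter by construction, the window held 7 peaks (1 left, 3 middle, 3 right), the median gap was 41.25 kb and the median number stood at 62.8%. The share of replicate 2 peaks that overlapped replicate 1 was 46.2% with a reciprocal overlap of 50% and 50.0% with centres within 200 bp. Both rules are stricter than an overlap of 1 bp for peaks of the usual width. The median of the other windows also fell, from 53.8% to 38.4% and 38.8%. Combined peaks of the window found in both replicates numbered 7 when each replicate was limited to its strongest 2299 peaks. They numbered 16 with a reciprocal overlap of 50% and 18 with centres within 200 bp. Shares of the whole list under these settings are not given here, so the lower counts cannot be read as a trait of the window. The Hox window was above 98.4% of 1279 sliding windows, with 10 higher (up to 22 peaks), and above 100% of windows shifted by 50% of their length. No paired analysis was possible because the numbers link each ChIP library to its input, and no peak list of input DNA was analysed here. With unknown depth, absence from the replicate 2 list does not show that a region was unbound.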
